A study of Penaeus vannamei with 6 samples.

Results

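In juvenile whiteleg shrimp (Penaeus vannamei), 15 of 341828 transcripts assembled from the gill had levels in seawater and brackish water that overlapped, and levels at least 4 times lower in fresh water. They were chosen by the deposited RPKM values themselves, a measure of reads relative to transcript length and library depth. The mean over the 6 libraries had to be at least 10 and under 1000 RPKM. Each of the 2 seawater and 2 brackish water libraries had to hold at least 4 times the higher of the 2 fresh water libraries. The higher brackish water library had to reach the lower seawater library, and the lower brackish water library could not lie above the higher seawater library. All animals were juveniles, and the 3 groups differed in the culture water, which was seawater, brackish or fresh, with 2 libraries each, called a pair below, and no other treatment, genotype or strain named in the labels. The labels give no salinity values, do not say how many animals a library holds, or whether a pair comes from different animals, so p-values reflect the spread between libraries, possibly technical. The rule fixes the drop itself, which is therefore described below and not offered as a finding.

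The gill of a penaeid shrimp is an organ of gas exchange, ion transport and waste excretion. In water more dilute than the haemolymph, its epithelium takes up salt against a gradient, driven by the sodium pump and the proton pump. Near or above the concentration of the haemolymph that demand falls away or turns round. Which gill functions the 15 transcripts serve cannot be said here, since the files give assembly names only and no sequences were at hand. Of the transcript names 0 matched an entry in RefSeq's gene list for assembly ASM4276789v1. Assembly names are not gene names, so this says nothing about what the transcripts are. In a name such as comp242251_c0_seq1 the first 2 parts name the component, a set of assembled sequences that share stretches, and the last part names the sequence. Transcripts of one component can be alternative forms or assembly fragments of one gene, and reads may be split between them. In bulk gill RNA, fewer cells of a type and less RNA per cell cannot be told apart.

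The libraries held 16500257 to 37027007 reads, recovered from the RPKM values. The brackish water libraries stood apart from each other, with reads for 203824 transcripts in library 1 and 61478 in library 2, against 55464 and 72650 for the seawater pair and 207274 and 213853 for the fresh pair. Factors from the trimmed mean of M values (TMM), which balance the bulk of the transcripts between libraries, were 0.647 and 0.864 for the seawater pair, 1.56 and 0.384 for the brackish pair, and 1.57 and 1.91 for the fresh pair. Dividing by them moved the median fresh to seawater log2 fold change, over the 25901 tested transcripts, from 0.89 to 0.05. On the deposited scale the median transcript was thus higher in fresh water, the opposite direction to the 15.

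Few transcripts showed such a drop. Of 5054 transcripts at the level the rule asks for, 23 had the 4-fold drop from both other waters. Of these 23, both brackish water libraries lay below both seawater libraries in 6 and above both in 2, which left the 15. The mirror pattern, with both fresh water libraries at least 4 times the highest of the other 4 at the same level, was met by 26. It asked for no order of seawater and brackish water, so the 26 stand beside the 23 and not the 15. Both counts were taken on the deposited scale. The edge of the rule cut through a continuous range. Just inside lay comp238258_c0_seq5, whose lowest seawater or brackish water value was 4.18 times its higher fresh water value, and comp177688_c0_seq3, at 4.06 times. Just outside lay comp248376_c1_seq7 at 3.87 times and comp247046_c0_seq1 at 3.82 times, and 9 transcripts in all that met every other condition lay between 3 and 4 times. On the level, the lowest member mean was 13.7 RPKM, and the 2 transcripts just outside that met all else were comp222735_c0_seq1 and comp216999_c0_seq1, with means of 8.90 and 8.85 RPKM. The highest member mean was 225 RPKM, and 0 transcripts of 1000 RPKM or more met the rest of the rule.

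**Figure D1:**
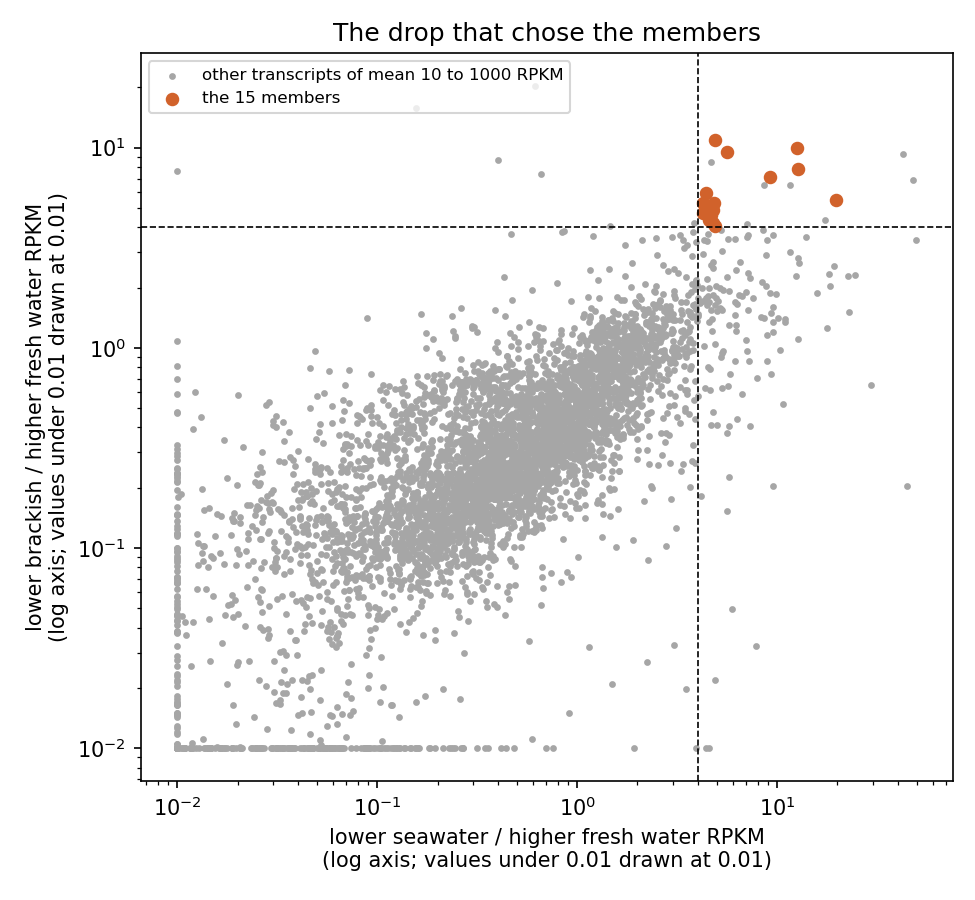
For transcripts of mean 10 to 1000 RPKM, the lower seawater value (horizontal log axis) and the lower brackish water value (vertical log axis) are each divided by the higher fresh water value. Dashed lines mark 4, the drop that chose the 15 members (orange). Other transcripts beyond both lines failed a condition on the order of seawater and brackish water.

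The number 15 depended on single libraries. The rule applied to the libraries that are left gave 2 transcripts when seawater library 1 was left out and 6 when seawater library 2 was. It gave 37 and 13 when brackish water library 1 or 2 was left out, and 104 and 18 when fresh water library 1 or 2 was. With 1 seawater library, its value has to lie between the 2 brackish water values, and this condition alone narrows the set. All 15 were among the 104 and among the 18, while 11 of the 15 were among the 37 and 10 among the 13. On RPKM divided by TMM factors the rule was met by 42 transcripts, the 15 among them.

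The most abundant member was comp242251_c0_seq1, 856 bases long. It gave 313 and 470 RPKM in the seawater pair, 193 and 331 in the brackish pair, and 24.6 and 17.3 in the fresh pair. Its second form in the same component, comp242251_c0_seq3, 631 bases long, stood lower throughout, and gave 45.1 and 78.8 RPKM in the seawater pair, 35.1 and 70.5 in the brackish pair, and 4.31 and 4.92 in the fresh pair. Both forms were higher in library 2 than in library 1 of seawater and of brackish water. These 2 forms were the whole component, whose summed reads, scaled to library depth as RPM, were 297 and 452 in the seawater pair, 188 and 328 in the brackish pair, and 23.8 and 17.9 in the fresh pair.

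The deepest drop by the rule's own ratio was that of comp240402_c0_seq2, the sole transcript of its component and 1059 bases long. It gave 216 and 296 RPKM in the seawater pair, 170 and 261 in the brackish pair, and 16.3 and 17.1 in the fresh pair. Its lowest value outside fresh water was 9.92 times its higher fresh water value, with comp242251_c0_seq1 next at 7.84 times and comp242251_c0_seq3 at 7.13 times. These were the 3 that also met the rule with a 6-fold drop.

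A further pair of members were sole transcripts of their components. The 561-base comp237588_c1_seq1 gave 291 and 127 RPKM in the seawater pair, 171 and 196 in the brackish pair, and 28.8 and 26.0 in the fresh pair. The 2004-base comp248560_c0_seq2 gave 34.4 and 212 RPKM in the seawater pair, 76.5 and 86.2 in the brackish pair, and 7.05 and 6.99 in the fresh pair. For both, the brackish water and fresh water libraries of a group lay close together, and the seawater libraries lay apart on either side of the brackish water values.

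Component comp238258_c0 held 3 members. The form comp238258_c0_seq3 (1008 bases) gave 98.0 and 154 RPKM in the seawater pair, 132 and 101 in the brackish pair, and 20.6 and 16.4 in the fresh pair. The longest member, comp238258_c0_seq8 (2455 bases), gave 43.2 and 62.9 RPKM in the seawater pair, 55.8 and 42.4 in the brackish pair, and 9.24 and 8.13 in the fresh pair. The form comp238258_c0_seq5 (554 bases) gave 30.7 and 40.0 RPKM in the seawater pair, 32.6 and 27.0 in the brackish pair, and 6.47 and 2.65 in the fresh pair. All 3 were higher in seawater library 2 and in brackish water library 1, so they moved in parallel and are not 3 separate observations.

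The shortest member, comp177688_c0_seq3 (269 bases), gave 323 and 233 RPKM in the seawater pair, 331 and 194 in the brackish pair, and 47.7 and 26.8 in the fresh pair. Its fresh water values were the highest of all 15. The 707-base comp242925_c1_seq3 gave 196 and 75.9 RPKM in the seawater pair, 196 and 72.0 in the brackish pair, and 16.7 and 13.5 in the fresh pair. For the latter the libraries numbered 1 of both saltier waters matched each other, as did the libraries numbered 2. The 1642-base comp241897_c0_seq2 gave 212 and 80.4 RPKM in the seawater pair, 87.2 and 127 in the brackish pair, and 16.6 and 11.8 in the fresh pair.

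The remaining 4 members had means under 50 RPKM. The 278-base comp248364_c1_seq7 gave 22.7 and 155 RPKM in the seawater pair, 40.4 and 38.6 in the brackish pair, and 4.06 and 3.72 in the fresh pair. Like comp248560_c0_seq2, it was several times higher in seawater library 2 than in seawater library 1. The 628-base comp245327_c1_seq1 gave 44.8 and 30.2 RPKM in the seawater pair, 37.5 and 42.8 in the brackish pair, and 7.13 and 7.00 in the fresh pair. The 1573-base comp243793_c0_seq4, with the lowest mean at 13.7 RPKM, gave 22.0 and 16.0 RPKM in the seawater pair, 19.8 and 17.6 in the brackish pair, and 3.75 and 2.82 in the fresh pair. For the last 2 the libraries of each pair lay within 1.48 times of each other.

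The 872-base comp245510_c1_seq5 was the only member close to absence in fresh water. It gave 63.5 and 11.9 RPKM in the seawater pair, 3.34 and 22.8 in the brackish pair, and 0.609 and 0.0989 in the fresh pair. The fresh water values rest on 16 reads (exact 95% Poisson interval 9.15 to 26.0) and 2 reads (0.242 to 7.22), intervals that cover counting error only. It was also the most variable member, with the libraries of each pair 5.33 to 6.82 times apart, and its lower brackish water value was 5.50 times its higher fresh water value. Every other member had at least 24 reads in each fresh water library.

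**Figure D2:**
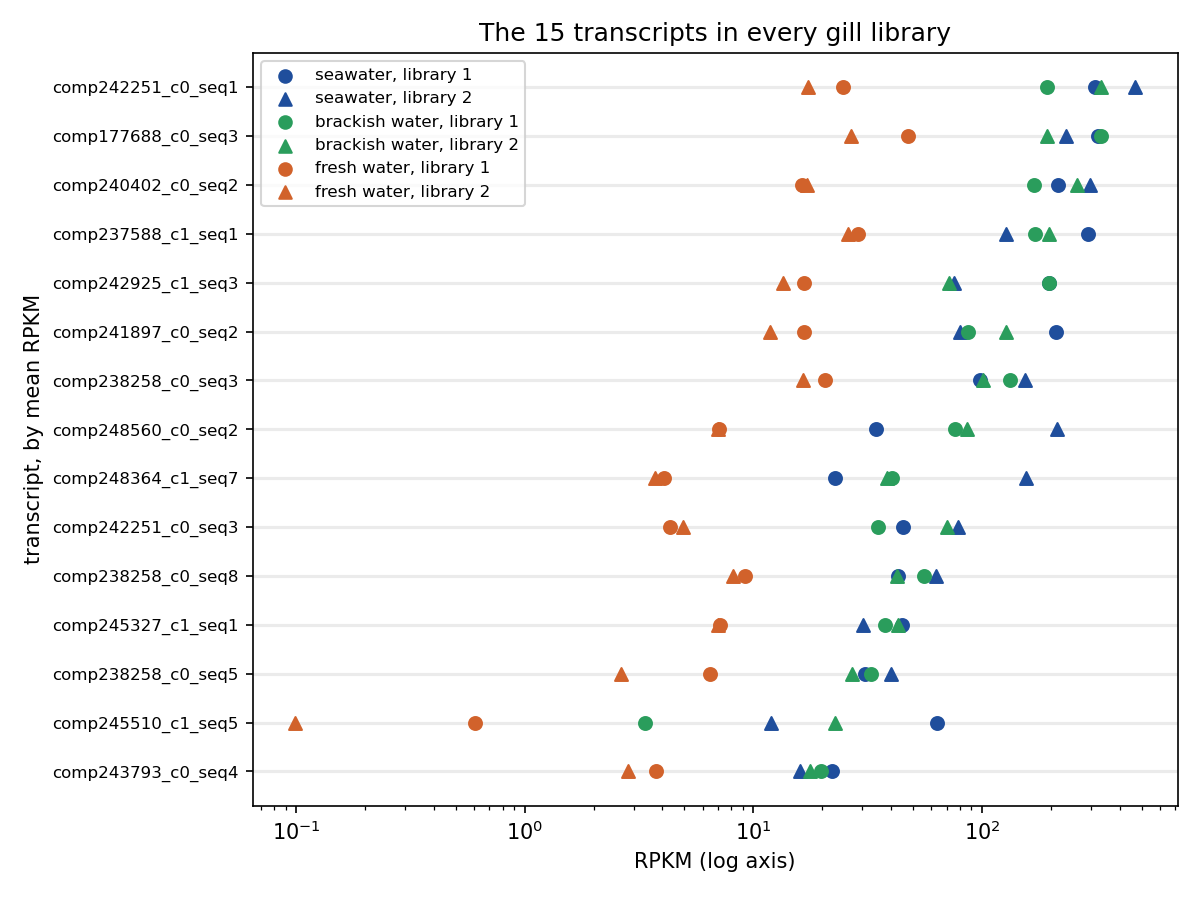
RPKM (log axis) of the 15 transcripts, ordered by their mean, in each of the 6 libraries; colour gives the water and shape the library number. The fresh water points lie to the left of the other 4 in every row, as the rule requires, while seawater and brackish water points overlap.

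The word lost overstates what most of these transcripts showed. The mean RPKM in fresh water was 0.939% of that in seawater for comp245510_c1_seq5 and 4.37% to 18.9% for the other 14, with a median over all 15 of 11.1%. Taking the most abundant member of each of the 12 components, the median was 10.4%. Over the 5054 transcripts at that level the median was 117%. Divided by TMM factors, the medians were 4.51% for the 15 and 51.4% for the 5054. Relative to brackish water the 15 kept 2.70% to 17.7% of their level. The mean in brackish water was 0.347 to 1.07 times that in seawater, with a median of 0.852, close to the median of 0.843 over the 5054.

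Together the 15 took a small part of the gill reads. They held 0.168% and 0.194% of the reads of the seawater pair, 0.134% and 0.150% of the brackish pair, and 0.0182% and 0.0149% of the fresh pair. Without comp242251_c0_seq1 the shares were 0.141% and 0.154%, 0.118% and 0.122%, and 0.0161% and 0.0134%. In their place within each library, which no scaling factor alters, the members ranked from 278 to 3254 among the 25901 tested transcripts in the seawater and brackish water libraries and from 1537 to 19082 in the fresh water libraries, leaving out comp245510_c1_seq5. The latter reached rank 14689 in brackish water library 1 and ranked 25488 and 25691 in fresh water. Each of the 15 ranked lower in both fresh water libraries than in any of the other 4. Ranks come from the RPKM values that chose the members, so they describe the drop and are no separate support. The median rank was 1436 and 1067 for the seawater pair, 1047 and 933 for the brackish pair, and 6235 and 8165 for the fresh pair.

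**Figure D3:**
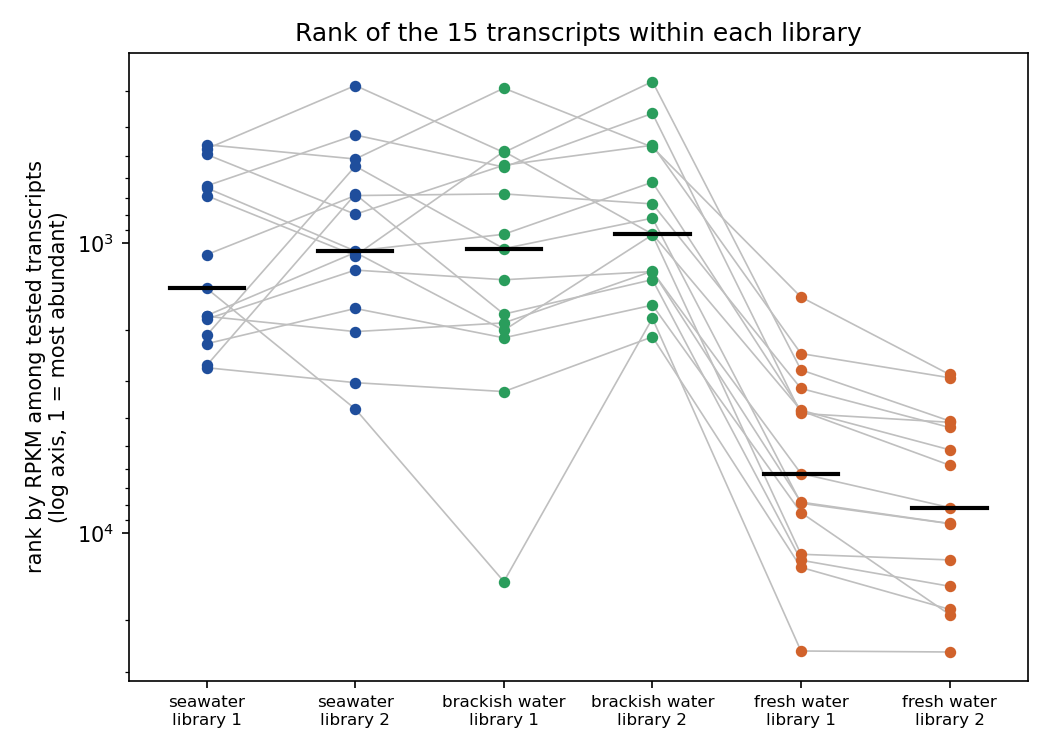
Rank of each of the 15 transcripts by RPKM among the 25901 tested transcripts of a library (inverted log axis, 1 is the most abundant); grey lines join a transcript across libraries and black bars mark the median rank. The median moves from between 933 and 1436 in the 4 saltier libraries to 6235 and 8165 in fresh water. The ranks come from the RPKM values that the rule used.

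Length was not used by the rule. The members were 269 to 2455 bases long with a median of 856, and 4 of the 15 were longer than the median of 1336 bases over all tested transcripts. The median over the 5054 transcripts of the same level was 1324.5 bases. This is a description, since 3 of the members share a component and another 2 share a second.

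The spread of the members within a group differed between the 3 pairs of libraries. With a single pair per water, this cannot be tied to the water. The higher of the 2 libraries was 1.30 to 6.85 times the lower in seawater (median 1.57), 1.05 to 6.82 times in brackish water (median 1.31) and 1.01 to 6.15 times in fresh water (median 1.24). Over the transcripts of the same level with reads in both libraries the medians were 1.80, 3.15 and 1.26. The rule sets a floor for both brackish water libraries against fresh water, and its effect on their spread was not tested. The direction was mixed in seawater and brackish water, with library 1 higher for 7 of the 15 in each. In brackish water, library 1 was higher for 76.4% of the 5054. In fresh water library 1 was higher for 13 of the 15, against 39.9% of the 5054. The closeness of the brackish water libraries held on the deposited scale only. Divided by TMM factors, library 2 exceeded library 1 for all 15 and the median ratio was 4.57, against 2.14 over the 5054.

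**Figure D4:**
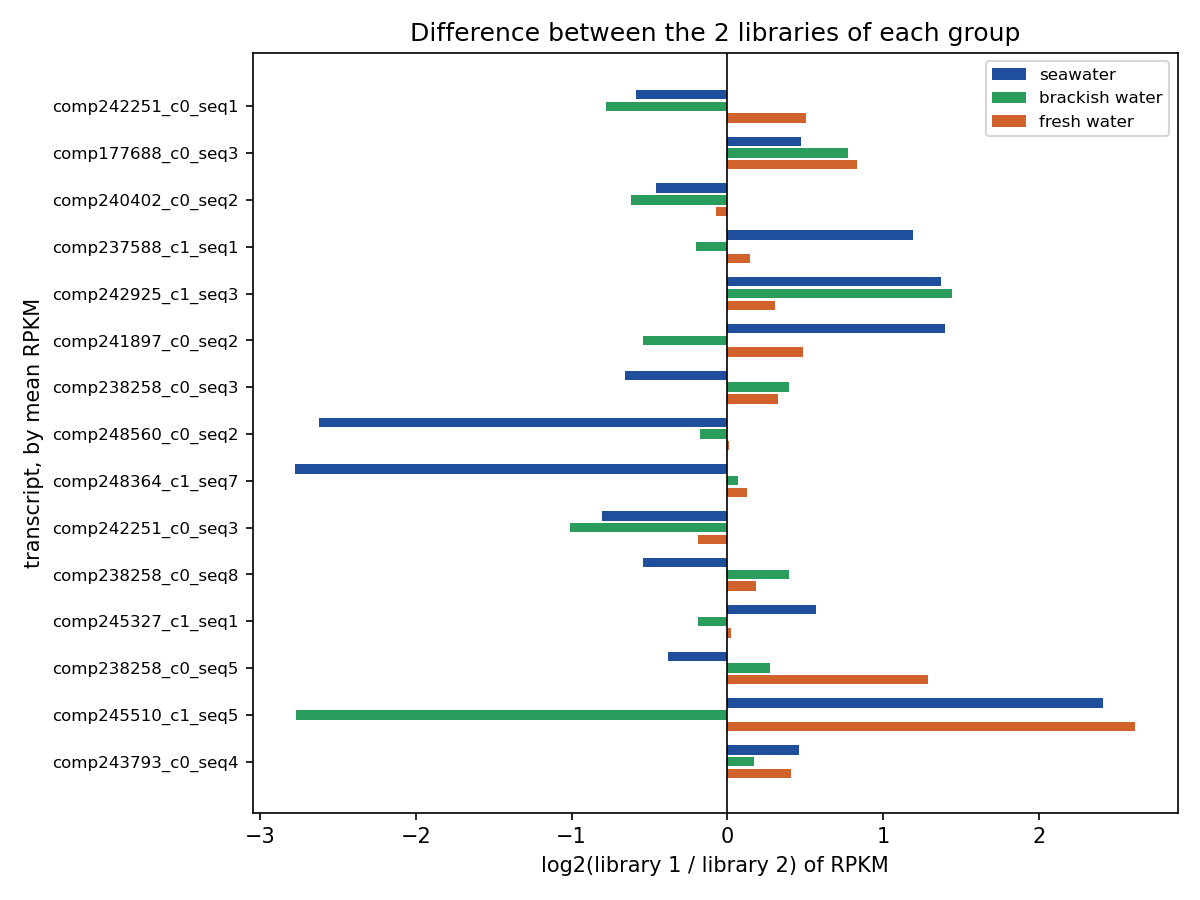
Log2 ratio of library 1 to library 2 in RPKM for each member and water; bars to the right mean that library 1 was higher. Seawater bars of comp248560_c0_seq2 and comp248364_c1_seq7 reach -2.62 and -2.78, and all 3 bars of comp245510_c1_seq5 are beyond 2 in size.

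All 25901 transcripts averaging 1 RPKM or more were fitted together with limma on log2(RPKM + 1), and all 15 members were among them. Of the members, 9 from 8 components passed as lower in fresh water than in seawater at a Benjamini-Hochberg adjusted p under 0.05. In this comparison 0.625% of all tested transcripts passed as lower, and 2.45% of those with a mean of 10 to 1000 RPKM. Since the rule used this contrast, the count describes the members and supports nothing further. The 3 comparisons share libraries, so their values are set side by side and not correlated. The log2 fold changes of the 9 ran from -4.44 to -2.77. The largest belonged to comp245510_c1_seq5, at -4.44, standard error 0.98 (limma adjusted p = 0.0189), and to comp242251_c0_seq1, at -4.15, standard error 0.75 (limma adjusted p = 0.00653, and 4.44e-06 to 0.179 across 13 alternatives, of which 4 ended the call). The other 7 called were comp240402_c0_seq2, comp248364_c1_seq7, comp248560_c0_seq2, comp242251_c0_seq3, comp241897_c0_seq2, comp177688_c0_seq3 and comp237588_c1_seq1. Over the 9, from 4 to 8 of the 13 alternatives ended the call. The 4 of comp242251_c0_seq1 were the fewest, and comp245510_c1_seq5 had 6. The 6 that did not pass had log2 fold changes of -2.95 to -2.22 and limma adjusted p from 0.0543 to 0.122, and all 3 members of comp238258_c0 were among them.

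Against brackish water, 2 of the 15 passed as lower in fresh water by limma, where 0.112% of all tested transcripts and 0.139% of those with a mean of 10 to 1000 RPKM did. The first, comp240402_c0_seq2, averaged 215 ± 64.5 RPKM (SD, n = 2) in brackish water and 16.7 ± 0.597 RPKM (SD, n = 2) in fresh water. The log2 fold change was -3.58, standard error 0.78 (limma adjusted p = 0.0428, and 1.51e-05 to 0.769 across 13 alternatives, of which 7 ended the call). The second, comp242251_c0_seq1, averaged 262 ± 97.8 and 21.0 ± 5.17 RPKM (SD, n = 2 each). The log2 fold change was -3.55, standard error 0.75 (limma adjusted p = 0.0316, and 5.07e-05 to 0.769 across 13 alternatives, of which 7 ended the call). The limma adjusted p of the other 13 ran from 0.141 to 0.629. This contrast too was used by the rule.

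These calls changed when a library was left out and with the scaling. Leaving a library out leaves 1 in its group, so lost power and dependence on that library cannot be told apart. The members' median log2 fold change against seawater was -3.31 and -2.80 without fresh water library 1 or 2, and -2.95 with all 6 libraries. Of the 15, limma called 4 against seawater with seawater library 1 left out, 7 with seawater library 2 left out and 15 with either library of brackish water left out. Over all tested transcripts the shares called lower were then 0.297%, 1.08%, and 2.96% and 3.16%, so the rise to 15 came with a wider rise in calls. It called 1 of the 15 with fresh water library 1 left out and 0 with fresh water library 2 left out, where 11 had an unadjusted p under 0.05. Of all tested transcripts 0.278% and 0.0193% were then called lower. Against brackish water the counts were 5 and 4 with seawater library 1 or 2 left out, 12 and 0 with brackish library 1 or 2 left out, and 0 and 0 with fresh water library 1 or 2 left out, and in the last 3 cases 14, 12 and 9 had an unadjusted p under 0.05. The shares of all tested transcripts were 0.324% and 0.263%, 1.46% and 0%, and 0.135% and 0.0463% in the same order. With TMM factors limma called 0 of the 15, and 0 of all tested transcripts, in either comparison. The unadjusted p was under 0.05 for 15 and 14, and for 8423 and 1552 of all 25901 in either direction. The members' median log2 fold changes were larger in size, at -4.09 and -3.91 against -2.95 and -2.82. The edgeR test on recovered reads also called 0 of the 15 and 0 of all tested. Its unadjusted p was under 0.05 for 15 and 15, and for 8406 and 1651 of all 25901 in either direction. The rule used both contrasts, so every count of members at an unadjusted p is a description only. DESeq2 called all 15 in both comparisons, where it called 11.7% of all tested transcripts lower than in seawater and 1.25% lower than in brackish water. No member had a positive log2 fold change in either comparison under any of these settings. The rule fixes this sign on the deposited scale, so it is no sign of stability.

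Brackish water against seawater gave 0 of 15 by limma, with 0 at an unadjusted p under 0.05, while 0.0734% of all tested transcripts passed in either direction. By edgeR and DESeq2 on recovered reads it also gave 0, with 0 at an unadjusted p under 0.05, while edgeR called 0% and DESeq2 13.7% of all tested transcripts. The log2 fold changes ran from -1.50 for comp245510_c1_seq5 (standard error 0.98, limma adjusted p = 0.818) to 0.12 for comp245327_c1_seq1 (standard error 0.91). By limma 14 of the 15 were negative, against 43.2% of all tested transcripts, and some members share a component. That share covers every tested level. Over the 5054 transcripts at the members' level the median ratio of brackish water to seawater means was 0.843, thus also lower in brackish water. Several members were positive by edgeR and DESeq2. The rule bounds this comparison by asking the groups to overlap. The standard errors were 0.74 to 0.98 with 2 libraries a group, and a p that misses the threshold does not show equal levels.

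The components of the members held another 18 transcripts that did not meet the rule, in 8 of the 12 components. These names were chosen after their values were seen. All 4 of these mates averaging 10 RPKM or more had both fresh water libraries below the other 4, a pattern shown by 427 of the 5054 transcripts at that level, or 8.45%. Reads may be shared between a member and its mate, so the mates are not independent of the members. The form comp177688_c0_seq2 gave 209 and 234 RPKM in the seawater pair, 190 and 123 in the brackish pair, and 29.5 and 17.1 in the fresh pair. It had the 4-fold drop and missed the rule only because both brackish water libraries lay below both of seawater. The mates comp245327_c1_seq2, comp242925_c1_seq2 and comp238258_c0_seq6 dropped by 3.79, 2.69 and 2.59 times by the same ratio, short of 4. The first of these was the main form of its component, at 141 and 88.3 RPKM in the seawater pair, 88.3 and 94.6 in the brackish pair, and 23.3 and 13.4 in the fresh pair.

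The 14 scarcer mates did not share the pattern as a group. Both fresh water libraries lay below the other 4 for 3 of the 14, and the fresh water mean exceeded the seawater mean for 5. No share over all transcripts this scarce was computed, and only 8 of the 14 averaged 1 RPKM or more. The mates in comp245510_c1 all fell, keeping 2.61% to 19.1% of their seawater mean in fresh water. Their brackish water library 1 was also low, at 0 to 1.64 RPKM, so most of them missed the pattern there. In comp241897_c0 the scarce form comp241897_c0_seq3 gave 2.44 and 3.93 RPKM in the seawater pair, 5.26 and 0.848 in the brackish pair, and 5.14 and 6.26 in the fresh pair. The member comp241897_c0_seq2 therefore took 98.7% and 94.6% of the component's reads in seawater but 73.2% and 61.6% in fresh water. In comp243793_c0 the form comp243793_c0_seq2 gave 0.0954 and 0.998 RPKM in the seawater pair, 12.8 and 1.16 in the brackish pair, and 5.48 and 10.6 in the fresh pair. The share of the member comp243793_c0_seq4 in that component went from 99.8% and 97.5% in seawater to 62.9% and 39.8% in fresh water, with 79.4% and 97.4% in brackish water. In comp242925_c1 the member's share was 40.7% and 35.0% for the seawater pair, 43.4% and 43.9% for the brackish pair, and 22.3% and 18.6% for the fresh pair. In comp238258_c0 and comp177688_c0, by contrast, the members' share in fresh water, 74.9% and 75.6% and 57.1% and 56.2%, lay within the range of the other 4 libraries.

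**Figure D5:**
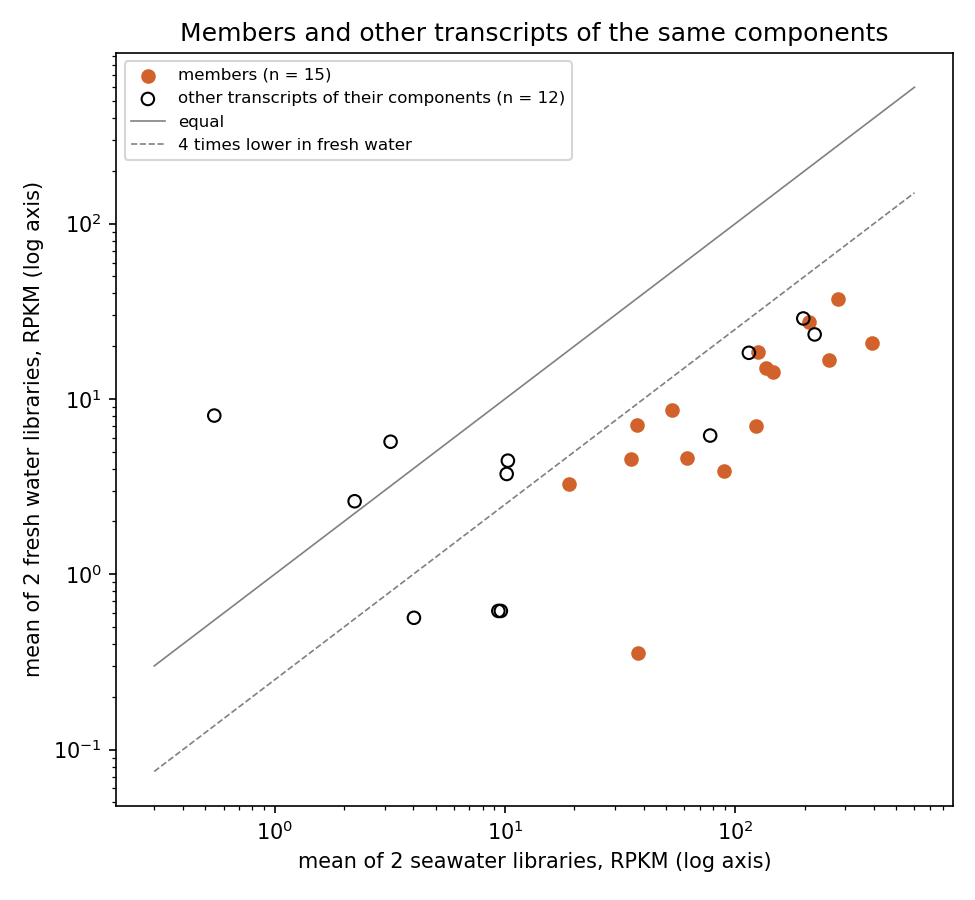
Mean RPKM of the 2 fresh water libraries against that of the 2 seawater libraries (log axes) for the 15 members (filled) and the 12 other transcripts of their components averaging 1 RPKM or more (open). The solid line marks equal levels and the dashed line a 4 times lower level; mates at high seawater levels lie near the members, and 3 mates lie above the solid line.

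With reads summed over whole components and scaled to library depth, the drop was kept at 4 times or more in 7 of the 12 components and ranged from 2.14 to 9.92 times. The 5 below 4 were comp245327_c1, comp241897_c0, comp243793_c0, comp242925_c1 and comp245510_c1. In comp243793_c0 the component counted 34.7 and 25.8 RPM in the seawater pair, 39.3 and 28.5 in the brackish pair, and 9.39 and 11.2 in the fresh pair. In comp242925_c1 it counted 341 and 153 RPM in the seawater pair, 319 and 116 in the brackish pair, and 52.9 and 51.3 in the fresh pair.

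Of the 341828 transcripts, 55575 were in the authors' deposited table for fresh water and seawater, which lists p-values up to 0.04998. It held 5 of the 15 members. They were comp238258_c0_seq5, comp177688_c0_seq3, comp243793_c0_seq4, comp242251_c0_seq1 and comp238258_c0_seq8, with unadjusted p from 0.0254 to 0.0463 and log2 fold changes of mean RPKM from -4.22 to -2.53 in the authors' deposited table. Of these 5, comp177688_c0_seq3 and comp242251_c0_seq1 were also called by limma here. The authors' deposited table for brackish water and seawater held 221076 transcripts, all 15 members among them. The members' p in it ran from 0.341 to 0.983 and their log2 fold changes from -1.53 to 0.10.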

How the data were processed

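Gill mRNA libraries, 2 per water, were grouped by the submitters' labels. The authors deposited RPKM for each transcript in each library, per the file headers. Assembler, aligner and counting tool are not named in the labels or headers. RPKM times length gave whole multiples of 1 step per library (within 0.1 read), taken as reads. Their averages equalled 100% of the mean read counts (expected counts) that the authors deposited for each group. The authors' deposited log2 fold changes and p-values were read from the same tables.

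limma 3.58.1 with a trend was fitted on log2(RPKM + 1) over transcripts averaging 1 RPKM or more, with group as the only term and 3 contrasts, Benjamini-Hochberg adjusted over all 25901. The script was tested on simulated data, drawn from the same means in every library apart from transcripts lowered in fresh water. Such data lack the library-wide differences seen here, so that test cannot show how the fit behaves with them. A pseudocount of 1 understates folds of scarce transcripts. Alternatives were edgeR 4.0.16 quasi-likelihood and DESeq2 1.42.0 on recovered reads, TMM factors, other filters and pseudocounts, a replicate block, the compared groups alone, and each library left out. Ranks, shares and component sums were computed from RPKM and recovered reads. The members, lists, tests and alternatives were chosen with earlier results of these data known. The naming rule took the 6 most abundant members, the 3 deepest drops, members passing both contrasts with fresh water, the edges of the drop and members sharing a component. The remaining members were named to account for all 15.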

Additional observations from a re-analysis of the deposited data

How the results depend on the processing

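The number of transcripts that met the rule was 15, and became 24 with a 3-fold drop, 3 with a 6-fold drop, 42 with TMM factors, 7 over component sums and 2 to 104 with a library left out. Minimum means of 5 and 20 RPKM gave 19 and 13. Members called lower in fresh water than in seawater numbered 9, and became 0 with no filter beyond a mean above 0 (13 at an unadjusted p under 0.05), with TMM factors (15) or by edgeR (15), 15 with the 2 groups alone or by DESeq2, and 0 to 15 with a library left out. Members called lower than in brackish water numbered 2, and became 0 with a pseudocount of 0.1 (15 at an unadjusted p under 0.05), with no filter (14), with TMM factors (14) or by edgeR (15), 15 by DESeq2, and 0 to 12 with a library left out. The cause was not tested. Of all tested transcripts, 3.02% were lower than in seawater with the 2 groups alone, 0.000646% with no filter, and 0.0811% lower than in brackish water with a pseudocount of 0.1. With no filter, the unadjusted limma p was under 0.05 for 60082 (against seawater) and 39460 (against brackish water) of 309408, in either direction. With a pseudocount of 0.1 it was so for 1182 of 25901 against brackish water. The replicate block gave 4 and 2, with 0.529% and 0.17% of all tested. Same-numbered deviations correlated at -0.457 between seawater and brackish water, 0.266 between seawater and fresh water and -0.411 between brackish and fresh water. They were taken on the deposited scale and carry library-wide differences, so they cannot decide whether the replicate numbers pair the samples.

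Brackish water against seawater gave 0 members under every alternative run, where 0% to 21.3% of all tested transcripts passed, but the sign of small log2 fold changes turned. By edgeR and DESeq2 it was 0.22 and 0.22 for comp240402_c0_seq2, 0.058 and 0.016 for comp237588_c1_seq1, 0.076 and 0.069 for comp238258_c0_seq3, 0.35 and 0.36 for comp242251_c0_seq3, 0.071 and 0.061 for comp238258_c0_seq8, and 0.16 and 0.13 for comp243793_c0_seq4. With a library left out it ran from -0.50 to 0.27 for comp177688_c0_seq3, -0.66 to 0.53 for comp237588_c1_seq1, -0.41 to 0.23 for comp238258_c0_seq3, -0.36 to 0.17 for comp238258_c0_seq8, -0.57 to 0.046 for comp240402_c0_seq2, -1.002 to 0.38 for comp241897_c0_seq2, -0.75 to 0.24 for comp242251_c0_seq3, -0.76 to 0.68 for comp242925_c1_seq3, -0.23 to 0.21 for comp243793_c0_seq4, -0.16 to 0.40 for comp245327_c1_seq1, -1.95 to 0.77 for comp248364_c1_seq7 and -1.37 to 1.21 for comp248560_c0_seq2. The lowest value was that of comp245510_c1_seq5, which stayed negative and ran from -2.73 to -0.28 with a library left out. For fresh water against seawater no member's sign turned, which the rule fixes on the deposited scale.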
